A study of Mus musculus with 54 samples.

Results

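The 18 cerebellum libraries of a series of 54 mouse brain libraries were divided into groups chosen by their own level of Ttr, the transcript of transthyretin. Libraries with at least 500 CPM of Ttr (the usual CPM unit, a gene's count scaled by the total of all gene counts in its library) formed a high-Ttr group of 7, and libraries with fewer than 100 formed a low-Ttr group of 8. The other 3 lay between these limits and were in neither group. The highest of the low-Ttr libraries had 41.5 CPM, those between had 132, 231 and 234 CPM, and the lowest of the high-Ttr libraries had 940 CPM. Each library came from the cerebellum of a different mouse at 8 weeks of age, and 10 mice were Mbd5+/GT and 8 were WT littermates, on a C57BL/6 background and from 3 litters. Mbd5+/GT mice, whose labels call them heterozygous, carry on 1 allele a gene-trap insertion in an intron of Mbd5 in all their cells, which leaves that allele with reduced expression rather than none. No treatment is named in the labels, and cortex and striatum libraries of the same 18 mice were also sequenced. Both genotypes were pooled in each Ttr group. Because Ttr chose the groups, the cerebellum differences below are descriptions without a test, and tests were made only on genotype, on the labels of the mice, and in cortex and striatum.

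The choroid plexus is a folded epithelium in the brain ventricles that secretes cerebrospinal fluid. Its epithelial cells make transthyretin, which carries thyroid hormone and, through retinol-binding protein, vitamin A, and they carry ion transporters, water channels, tight junctions and tufts of cilia on the face turned to the fluid. A choroid plexus lies in the fourth ventricle, directly beneath the cerebellum, and others lie in the lateral ventricles, next to the striatum and under the cortex, so dissected pieces of these regions can carry more or less of it.

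The libraries held between 25611034 (M763) and 45718952 (M760) gene counts in cerebellum, so levels near 0 CPM rest on a handful of reads: the 0.0585 to 0.293 CPM of Folr1 in the low-Ttr libraries, for example, stand for 2 to 9 counts. The tissue label was checked with markers of the cerebellum. Outside mice M754, M755, M756 and M761, the summed level of 12 granule cell genes was 6881 to 8543 CPM and that of 12 Purkinje cell genes was 8654 to 11028 CPM. The low-Ttr library of mouse M755 had only 415 CPM of the granule cell genes and 541 CPM of the Purkinje cell genes. The same library had 33612 CPM of 10 oligodendrocyte genes, against 4179 to 8803 CPM in the 14 libraries outside those 4 mice, and 480 CPM of 14 Hox genes, which mark the hindbrain and spinal cord, against at most 4.19 CPM in the 14. The libraries of mice M754, M761 and M756 had 20237, 9751 and 9251 CPM of the oligodendrocyte genes. The library of mouse M754, between the limits, had 2692 CPM of granule cell genes and 170 CPM of Hox genes. The high-Ttr libraries of mice M761 and M756 had 5244 and 6477 CPM of granule cell genes, with 65.8 and 63.5 CPM of Hox genes. Mice M755, M754 and M761 were the farthest along the first principal component, which held 42.2% of the variance. The markers of cerebellum were therefore nearly absent from the library of mouse M755, and the differences between the Ttr groups, the counts of called genes and the comparison of genotypes are also given without it or without the 3 mice.

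Ttr (ENSMUSG00000061808, chromosome 18, 20665280 to 20674321, plus strand, GRCm38) set the groups apart by a wide margin, as the choice of groups required. After TMM normalization, which corrects library totals for composition, its level in the 8 low-Ttr libraries was 4.09, 8.92 and 41.2 CPM (lowest, median, highest). In the 7 high-Ttr libraries it was 986, 1333 and 2388 CPM. The ratio of the medians was 149.5, and the difference of the mean log2 levels was 7.09, with a standard deviation within groups of 0.90. The 3 lowest libraries were those of mice M764, M765 and M755, and the 3 highest those of mice M757, M753 and M761, whose raw levels were 2279, 2381 and 2388 CPM.

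**Figure D1:**
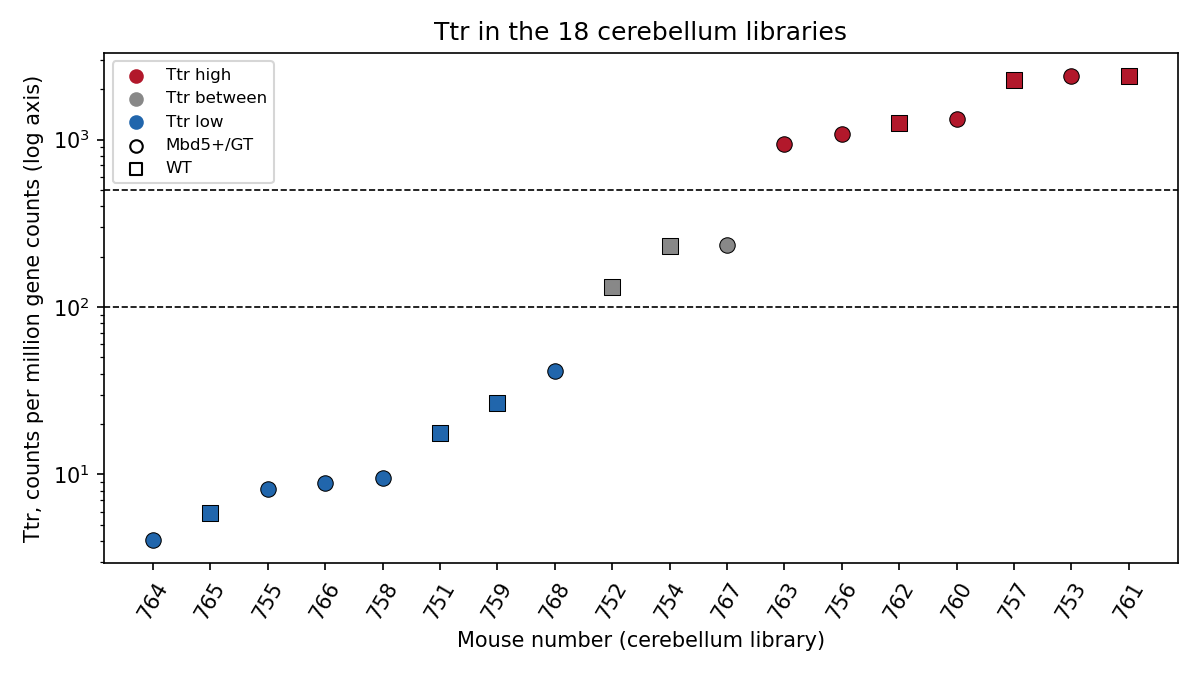
Ttr in raw CPM (log axis) in the 18 cerebellum libraries, ordered by level, with circles for Mbd5+/GT and squares for WT and with dashed lines at 500 and 100 CPM. The 7 high-Ttr libraries lie between 940 and 2388 CPM and the 8 low-Ttr libraries between 4.05 and 41.5 CPM, with 3 libraries between.

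Both genotypes were found in both groups. The high-Ttr group held 4 Mbd5+/GT and 3 WT mice, and the low-Ttr group held 5 Mbd5+/GT and 3 WT mice (2-sided Fisher's exact test, p = 1). Of the high-Ttr mice 6 were female and 1 was male, while 3 of the low-Ttr mice were female and 5 male (exact p = 0.119, 0.178 after Benjamini-Hochberg adjustment over 3 labels). Litters 1, 2 and 3 gave 4, 0 and 3 high-Ttr libraries and 2, 4 and 2 low-Ttr libraries (exact p = 0.119, adjusted 0.178). Groups of 7 and 8 leave room for unequal shares by sex and litter that such a test does not call. Litter 2, with no high-Ttr library, had only males, and litter 1 only females. Litter 3 alone had both, and its 3 males were 1 low-Ttr mouse (M751), 1 between the limits (M752) and 1 high-Ttr mouse (M753), so sex and litter could be separated only in that litter. Mean log2 Ttr was 6.63 ± 3.63 (SD, n = 10) in Mbd5+/GT and 7.38 ± 3.36 (SD, n = 8) in WT cerebellum, a difference of −0.75 that did not pass an exact 2-sided permutation test over all 43758 splits (p = 0.653). With splits that keep each litter's numbers the p was 0.687, again by exact permutation. Within litters 1, 2 and 3 the differences were −0.92, 2.04 and 0.57, where litter 2 held 1 WT mouse. Without mice M754, M755 and M761 the difference was 0.37 (exact permutation p = 0.84).

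Measurement was limited to the 18160 genes for which 8 or more cerebellum libraries held over 4 counts. Of these, 92 were higher in the high-Ttr group by at least 2-fold with no overlap between the groups, which is 0.507% of the genes measured. The same rule found 1 gene that was lower, Gm12525, which is 0.00551%. These are termed called genes below. At any fold, 198 genes were higher without overlap (1.09%) and 189 were lower (1.04%), so a lack of overlap alone was about as frequent in both directions. Beside Ttr, the largest differences were those of Tmem72, Kcne2, Folr1, Mfrp and Sostdc1. Of the 92 genes, 66 were protein-coding and 13 were of the annotation class TEC, transcripts that still await an experimental test. The shares of these classes among all genes measured are not given here, so the counts do not show an excess of either. Without mice M754, M755 and M761, 148 genes were called higher and 6 lower, and the 148 included 88 of the 92. Without mouse M755 alone, 159 were called higher, 88 of the 92 among them, and 6 lower. The number of cells of a type and the RNA made per cell cannot be told apart in such bulk tissue.

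A list of 68 choroid plexus epithelium genes, drawn up for this comparison and sorted by role, had 66 members above the filter. Of these, 32 were called higher and 0 lower, and their median difference was 1.55 on the log2 scale, against 0.00 for all genes measured. Without mouse M755, 33 were called and the median was 1.42, with Ace and Htr2c gained and Otx2 lost. Without mice M754, M755 and M761 the same 3 genes changed their call, and the median was 1.29. Slc28a3 and Cldn3 had too few counts. Since the groups were made from Ttr, a choroid plexus gene, the share called is a description and no evidence of its own. The counts by role were 7 of 12 secreted proteins, 7 of 12 ion and water transport genes, 3 of 11 nutrient and solute transport genes, 6 of 7 receptors and membrane proteins, 4 of 8 transcription factors and fate genes, 5 of 9 epithelial junction and keratin genes and 0 of 7 genes of retinoid and iodothyronine handling. Receptors and membrane proteins had the highest median, 4.56, and the retinoid and iodothyronine genes the lowest, −0.18.

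**Figure D2:**
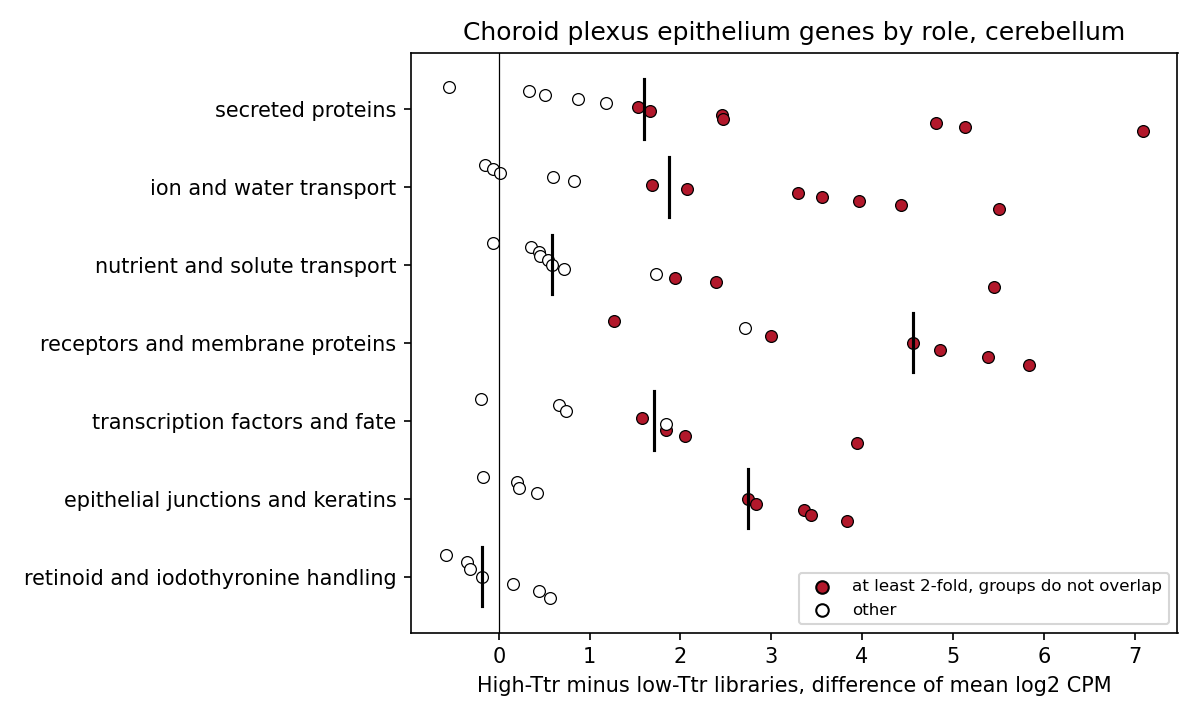
Difference of mean log2 CPM between high-Ttr and low-Ttr cerebellum libraries (x axis) for the 66 choroid plexus epithelium genes above the filter, by role. Filled points are at least 2-fold higher with no overlap between the groups, open points are all others, and each vertical bar is the median of a role, from −0.18 for retinoid and iodothyronine handling to 4.56 for receptors and membrane proteins.

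Among secreted proteins, Sostdc1, an antagonist of BMP and Wnt ligands, had 0, 0.0653 and 0.848 CPM in the low-Ttr libraries (lowest, median, highest) and 3.36, 6.96 and 10.5 CPM in the high-Ttr libraries, a log2 difference of 5.13. F5, coagulation factor V, had 0.205, 0.419 and 1.24 CPM against 6.53, 13.9 and 25.8 CPM. Both genes were rare in the low-Ttr libraries, and neither overlapped between the groups. Enpp2, or autotaxin, which makes lysophosphatidic acid, was abundant in both groups, with 145, 174 and 658 CPM against 711, 1116 and 1909 CPM. Its highest low-Ttr value was that of mouse M755, and the next one was 185 CPM. Enpp2 is also a gene of oligodendrocytes, whose markers were highest in that library, but their part in its Enpp2 level was not tested. 1500015O10Rik, the augurin gene Ecrg4, differed by 2.47, Lbp by 1.66 and Wfikkn2 by 1.53. Igf2, Igfbp2, Ace, Cp and Cst3 were not called, and their differences ran from −0.55 for Cst3 to 1.18 for Ace.

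Among ion and water transport genes, Kcne2 (ENSMUSG00000039672, chromosome 16, 92292389 to 92298129), a potassium channel subunit, had 0.108, 0.228 and 0.362 CPM in the low-Ttr libraries and 6.11, 11.7 and 22.2 CPM in the high-Ttr libraries, a difference of 5.51. Aqp1, a water channel of the fluid-facing membrane, had 0.109, 0.239 and 0.750 CPM against 4.88, 7.11 and 9.95 CPM, a difference of 4.43. The gap between the groups was wide for both genes. Car12, a carbonic anhydrase on the cell surface, had 0.469, 0.633 and 6.59 CPM against 8.79, 19.0 and 20.3 CPM. Again mouse M755 held the highest low-Ttr value of Car12, and the next one was 1.09 CPM. Kcnj13, an inward-rectifier potassium channel, differed by 3.56, Slc4a5, a sodium bicarbonate cotransporter, by 3.29, the cation channel Trpv4 by 2.07 and Clic6 by 1.68. Slc4a10, Slc12a2, Slc4a2, Atp1b1 and Car2 were not called, with differences from −0.16 to 0.83. These genes are also used by neurons or glia, and whether that bears on their differences was not tested.

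Receptors and membrane proteins were the role with the highest median difference. Tmem72 (chromosome 6, 116679063 to 116716913) had 0.0361, 0.237 and 0.522 CPM in the low-Ttr libraries and 7.95, 18 and 28.1 CPM in the high-Ttr libraries, a difference of 5.84. Kl, the ageing-related FGF23 co-receptor klotho, had 0.944, 1.43 and 5.05 CPM against 24.3, 51.1 and 59.9 CPM. The prolactin receptor gene Prlr had 0.325, 0.483 and 8.41 CPM against 12.1, 18.2 and 60.6 CPM. The highest low-Ttr values of Kl and Prlr came from mouse M755 as well. Mfrp, a frizzled-related membrane protein, differed by 5.38, Steap1 by 2.99 and the leptin receptor gene Lepr by 1.27. Htr2c, the serotonin 2C receptor gene, was not called although its medians were 3.11 and 22.1 CPM. The library of mouse M755 had 120 CPM of Htr2c, above every high-Ttr library, and without it Htr2c was called, with a difference of 3.42.

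The folate receptor gene Folr1 (chromosome 7, 101858331 to 101870788) led the nutrient transporters, with 0.0585, 0.201 and 0.293 CPM against 5.57, 9.71 and 15.7 CPM, a difference of 5.45. Abca4 and the glucose transporter gene Slc2a12 differed by 2.39 and 1.94. The other 8 nutrient transport genes were not called, and the largest of their differences was 1.73 for Slco1a5. Of the transcription factors, Gmnc, which promotes the multiciliated state, differed by 3.94, the roof plate factor Lmx1a by 2.05 and Otx2 by 1.58. Otx2, which is needed for choroid plexus development, had 0.326, 9.94 and 13.4 CPM in the low-Ttr libraries and 17.6, 18.7 and 24.2 CPM in the high-Ttr libraries, so unlike Folr1 it was well above zero in most low-Ttr libraries. Its lowest value, 0.326 CPM, was that of mouse M755, and without that library its difference was 1.00, just under the 2-fold limit, so the call of Otx2 rested on that library. The noncoding Otx2os1 differed by 1.84. Since the strand of the counting is not stated, reads of overlapping genes at that locus may not be fully separated. The tight junction genes Cldn1 and Cldn2 differed by 3.83 and 3.43, the keratin genes Krt18 and Krt8 by 3.36 and 2.75 and Col8a1 by 2.83. The general epithelial genes Cdh1, Perp and Spint2 were not called, with differences of 0.22, 0.42 and −0.18.

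**Figure D3:**
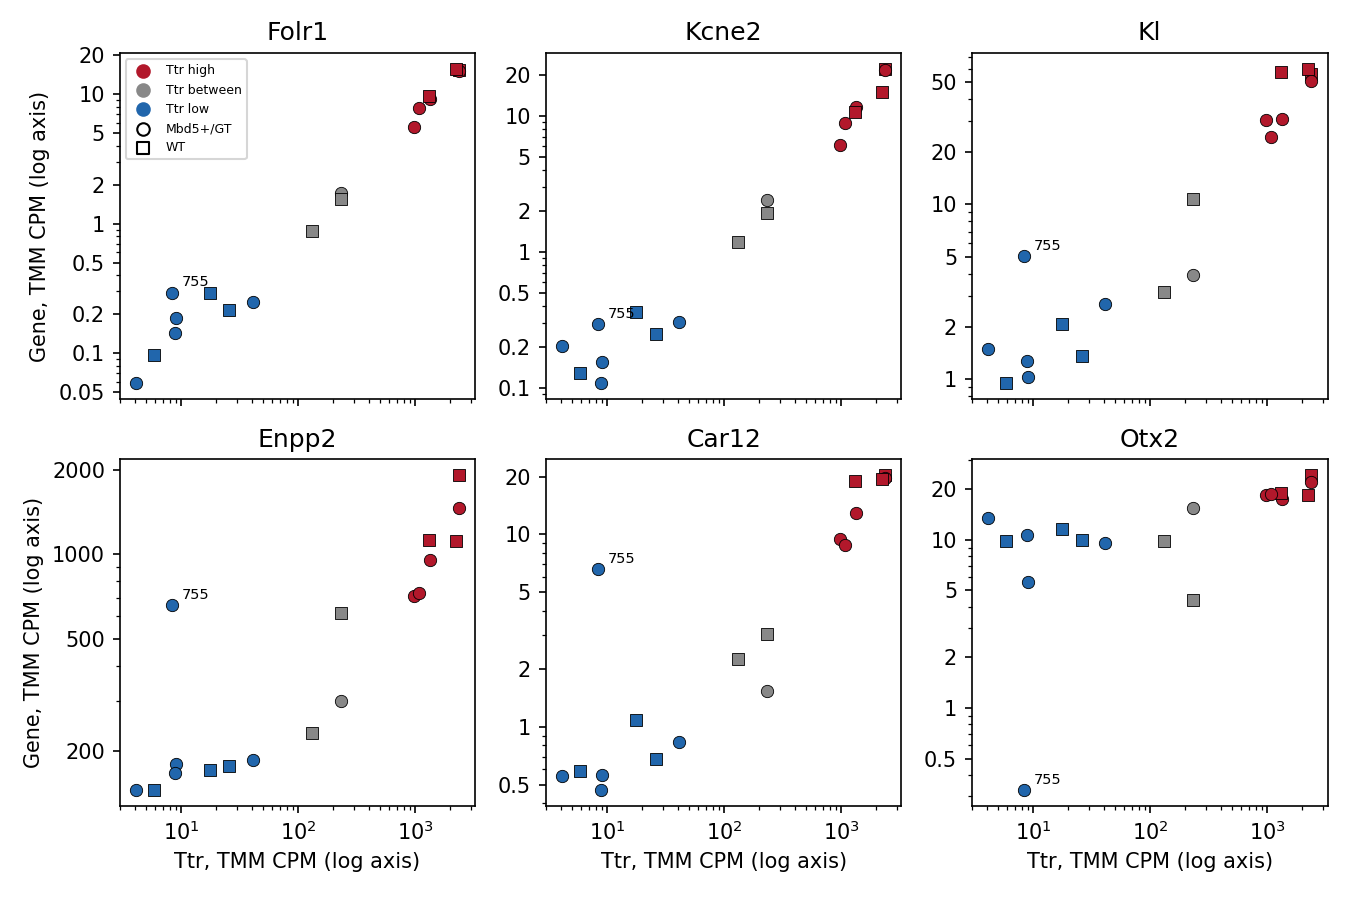
Level of 6 choroid plexus genes (y axes, TMM CPM, log axes) against Ttr (x axes, TMM CPM, log axes) in the 18 cerebellum libraries, circles for Mbd5+/GT and squares for WT. Folr1 and Kcne2 climb with Ttr across the 3 groups, whereas in Kl, Enpp2 and Car12 the low-Ttr library of mouse M755 lies apart with 5.05, 658 and 6.59 CPM, and in Otx2 it lies lowest with 0.326 CPM.

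Since Otx2 was among the called genes with all libraries, the promoters of the called genes were searched for the OTX-type homeodomain motif TAATCC on both strands. RefSeq promoter windows of 300 bases, from 250 before to 50 after a start site (GRCm38.p6), were found for 24 of the 32 called list genes, and 3 of the 24 held the motif (12.5%). Among all promoters in the table, 8.14% of genes held it, and among genes measured in cerebellum 7.27%. For all called genes the count was 5 of 51 matched genes (9.8%). These counts are small, and the match of a short motif does not show binding. The 3 windows are shown to place the motif. Each is written 5′ to 3′ on the strand of its gene, and the capitals mark GGATTA, the motif read on the opposite strand.
Abca4 (chr3:122044210-122044509, plus strand): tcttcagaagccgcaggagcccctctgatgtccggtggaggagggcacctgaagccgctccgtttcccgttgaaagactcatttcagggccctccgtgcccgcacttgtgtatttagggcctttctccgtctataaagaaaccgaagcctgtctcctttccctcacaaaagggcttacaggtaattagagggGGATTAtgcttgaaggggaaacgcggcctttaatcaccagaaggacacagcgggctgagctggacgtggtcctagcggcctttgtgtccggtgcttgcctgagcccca
Mfrp (chr9:44101520-44101819, plus strand): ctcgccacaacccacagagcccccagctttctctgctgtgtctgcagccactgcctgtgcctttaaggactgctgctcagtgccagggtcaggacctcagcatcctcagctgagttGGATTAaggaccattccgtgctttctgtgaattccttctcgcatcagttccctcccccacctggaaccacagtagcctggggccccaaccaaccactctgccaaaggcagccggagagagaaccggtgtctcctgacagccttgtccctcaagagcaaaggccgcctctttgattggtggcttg
Otx2 (chr14:48665060-48665359, minus strand): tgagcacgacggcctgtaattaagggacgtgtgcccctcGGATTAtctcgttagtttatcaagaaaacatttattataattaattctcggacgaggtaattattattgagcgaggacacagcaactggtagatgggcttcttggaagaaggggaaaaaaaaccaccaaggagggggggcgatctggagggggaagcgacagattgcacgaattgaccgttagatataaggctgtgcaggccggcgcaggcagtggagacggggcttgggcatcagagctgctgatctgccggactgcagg

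The forkhead motif TGTTTAC stood in 1 of the 24 list promoters (4.17%, against 4.05% of all promoters) and the X-box motif GTTGCC, a part of the sites bound by RFX factors, in 5 of the 24 (20.8%, against 14.1%). Genes with several start sites were counted once.

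Genes off the list were also called. The 15 with the largest differences were Slc24a5, Gm853, Tc2n, Wdr72, Prr32, Wfdc2, Wdr86, Gm26648, Oca2, Igfn1, Drc7, Rbm47, Gm43696, Dsp and Calml4, from 4.47 for Slc24a5 to 2.33 for Calml4. Slc24a5 and Oca2 are known for their work in melanosomes. Slc24a5 had 0, 0.0539 and 0.522 CPM in the low-Ttr libraries and 1.93, 3.64 and 5.71 CPM in the high-Ttr libraries. Oca2 had 0, 0.0928 and 0.166 CPM against 0.725, 1.2 and 2.17 CPM. Both were rare transcripts that nevertheless separated the groups. Wdr86 had 0.391, 0.650 and 0.978 CPM against 4.38, 6.29 and 11.1 CPM. Drc7 is a part of the ciliary dynein regulatory complex, and Dsp encodes desmoplakin, a protein of desmosomes. The only gene called lower, Gm12525 (chromosome 3, 108361551 to 108362256), had 0.359, 0.514 and 0.685 CPM in the low-Ttr and 0.164, 0.204 and 0.328 CPM in the high-Ttr libraries, a difference of −1.02. Without mouse M755 its difference was −0.97, under the 2-fold limit.

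Likeness to Ttr was measured as Pearson's correlation of log2 CPM over the 18 cerebellum libraries. These libraries share the spread of Ttr that formed the groups, so the values are given as descriptions. The 10 most alike genes were Folr1 (0.98), Kcne2 (0.98), Tmem72 (0.96), Mfrp (0.95), Oca2 (0.94), Slc24a5 (0.94), Sostdc1 (0.94), Kl (0.94), Gm853 (0.93) and Wdr86 (0.93). The ratio to Ttr within the high-Ttr group was described by the level of a gene above its low-Ttr median per 1000 CPM of Ttr above its own. For Folr1 it was 5.50 to 7.31 CPM per 1000 CPM of Ttr over the 7 libraries (coefficient of variation 9.41%). For Trpv4, 1500015O10Rik, Aqp1, Cldn2 and Kcne2 the coefficient was 14.1% to 15.3%, and for Prlr, F5, Wfikkn2 and Dsp it was 54.7%, 55.1%, 70.4% and 78.7%. Subtraction of the low-Ttr median makes this coefficient larger where the levels of the groups lie close: Wfikkn2, for instance, had a low-Ttr median of 0.775 CPM and a lowest high-Ttr value of 1.76 CPM. Prlr ranged from 7.64 to 30.02 CPM per 1000 CPM of Ttr, so its ratio to Ttr was far from constant over the 7 libraries. Differences between genes in this coefficient were not tested.

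Other cell types of the dissected tissue were described with 15 further lists, and 0 members of any of them were called. Among all genes measured 0.507% were called higher and 0.00551% lower, so a count of 0 in such short lists is near the general share. Without mouse M755, the cilium gene Cfap44 was called higher (2.02) and the endothelial tight junction gene Cldn5 lower (−1.01). Of 28 motile cilium genes, 22 had a difference above 0, with a median of 0.67. The summed level of the 28 was 73.0 to 122 CPM in the low-Ttr and 99.2 to 185 CPM in the high-Ttr libraries, which overlapped. The outer dynein arm heavy chain gene Dnah11 had medians of 20.2 and 36.3 CPM, and Dnah6, Ccdc39 and Hydin differed by 0.86, 0.75 and 0.65. Without mouse M755 the median of the 28 was 0.68. Dnah11 then differed by 0.72 instead of 1.10, and Dnah6, Ccdc39 and Hydin by 0.61, 0.76 and 0.38. The 12 ependyma genes above the filter had a median of −0.16, with 3 above 0, and without mouse M755 a median of −0.10, with 6 above 0. Foxj1, the regulator of motile cilia shared by ependyma and choroid plexus, had 3.77, 6.87 and 30.2 CPM in the low-Ttr and 5.12, 6.38 and 10.8 CPM in the high-Ttr libraries. The 30.2 CPM were those of mouse M755, and the difference of −0.20 turned to 0.08 without it and was −0.03 without mice M754, M755 and M761, so Foxj1 had no stable direction. Fibroblast genes of the choroid plexus stroma and meninges had a median of −0.17, brain endothelial genes −0.14, mural cell genes −0.36 and border macrophage genes −0.03. Of 5 fenestrated endothelium genes, which mark the leaky capillaries of the choroid plexus, 3 passed the filter. Plvap, the gene of their diaphragms, differed by −0.57, Ehd4 by −0.20 and Esm1 by 0.57, so the genes had no common direction. No gene of these supporting cell lists was called, which is near the 0.507% of all genes measured. Whether their share differs from that of the epithelial list was not tested.

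Granule cell genes had a median of 0.57, with 11 of 12 above 0, and Purkinje cell genes 0.28, with 8 of 12 above 0, against 9091 of 18160 among all genes measured. Both means of the low-Ttr group contain mouse M755, and without it the medians were −0.02 and −0.25, with 6 and 2 of 12 above 0. The group medians of the summed levels were close, with 7503 CPM of granule cell genes in the low-Ttr and 7743 CPM in the high-Ttr libraries, and 9257 and 10029 CPM of Purkinje cell genes. Oligodendrocyte genes had a median of −0.46, microglia genes −0.40, astrocyte and Bergmann glia genes −0.28, immediate early genes −0.15 and haemoglobin genes −0.71. Without mouse M755 these medians were −0.20, −0.21, −0.19, −0.18 and −0.57. The library of mouse M755, in the low-Ttr group, was the lowest in granule and Purkinje cell genes and the highest in oligodendrocyte and microglia genes. None of the 14 Hox genes passed the filter. Summed levels of all these lists overlapped between the groups, with 71.7 to 258 CPM of haemoglobin genes in the high-Ttr and 96.7 to 386 CPM in the low-Ttr libraries, for example.

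Measures of the RNA also moved with the Ttr groups. Malat1, an abundant nuclear noncoding RNA, was at 520 to 1432 CPM in the high-Ttr libraries (median 1143) and at 225 to 677 CPM in the low-Ttr libraries (median 410). Genes of the TEC class took 0.107% to 0.137% of the counts in the high-Ttr and 0.0727% to 0.113% in the low-Ttr group. Ribosomal protein genes took 0.624% to 0.961% against 0.888% to 1.47%, and ERCC spike-ins 0.0207% to 0.0663% against 0.0522% to 0.193%. All 4 ranges overlapped slightly. The part of these measures in the cerebellum differences was not tested.

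Cortex and striatum libraries were not used to choose the groups, so the genes were tested there. Ttr varied widely in each region, from 1.84 to 1160 CPM in cortex (median 49.0) and from 6.5 to 5966 CPM in striatum (median 82.9). The slope of each gene on log2 Ttr, that is its change in log2 level per doubling of Ttr, was tested with edgeR's quasi-likelihood test with genotype as a term and Benjamini-Hochberg adjustment over all genes of a region. Slopes were positive for 33 of 18660 genes in cortex (0.177%) and negative for 4 (0.0214%). They were positive for 292 of 18545 genes in striatum (1.57%) and negative for 16 (0.0863%). Of the 91 genes called in cerebellum beside Ttr, 84 could be tested in cortex and 23 of them rose with Ttr there (27.4%). In striatum 80 could be tested and 50 rose (62.5%). Without the 4 libraries with the most Ttr in each region, 11 rose in cortex and 10 in striatum. None of the 91 had a called negative slope in either region. The 23 were 23 of all 33 genes with a positive slope in cortex, and the 50 were 50 of all 292 in striatum.

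The called genes differed by class. Of the protein-coding ones, 23 of 62 rose with Ttr in cortex and 50 of 61 in striatum. Of the others, 0 of 22 and 0 of 19 did, with median slopes of 0.02 and 0.03. The noncoding Otx2os1 was below the filter in each region and is not in these counts. In a fit of cortex and striatum together its common slope was 0.60 ± 0.06 (SE, edgeR adjusted p = 2.0e-09). Gm43696, also below the filter in each region, had a common slope of 0.04 ± 0.09 (adjusted p = 0.867). Of the 79 genes tested in both regions, 23 rose in both, 26 passed the threshold in striatum and not in cortex, and 30 passed in neither. A slope that passed in 1 region alone does not show that the slopes differ, and the difference itself was tested separately, as given below. The 30 included Gm26648, Igfn1 and 1 choroid plexus list gene, Car12. Car12 had slopes of −0.00 ± 0.04 (SE) in cortex and 0.10 ± 0.05 in striatum (edgeR adjusted p = 0.995 and 0.329), although it differed 30-fold between the group medians in cerebellum. The level of Car12 was 10.5 to 38.1 CPM in cortex and 13.3 to 88.8 CPM in striatum. Both ranges lay above every low-Ttr cerebellum library, the highest of which had 6.59 CPM. Whether this bears on the slopes of Car12 was not tested.

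Slopes of choroid plexus list genes are given as examples. Mfrp rose by 0.94 ± 0.06 (SE) per doubling of Ttr in cortex and by 1.09 ± 0.04 in striatum (edgeR adjusted p = 3.3e-09 and 8.1e-12). Slc4a5 rose by 0.72 ± 0.04 and 0.87 ± 0.04 (adjusted p = 3.3e-09 and 7.4e-11). Folr1 rose by 0.68 in both regions, with standard errors of 0.04 and 0.05, and ran from 0.0708 to 10.2 CPM in cortex and from 0.365 to 38.5 CPM in striatum. Kcne2 rose by 0.67 ± 0.05 and 0.85 ± 0.04. Otx2 rose by 0.34 ± 0.07 in cortex, with an adjusted p of 0.044, and by 0.58 ± 0.05 in striatum. A slope under 1 says that the gene rose by less than 2-fold for each doubling of Ttr.

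By role, the list genes that rose in striatum were 9 of 11 secreted proteins, 6 of 12 ion and water transport genes, 8 of 11 nutrient transport genes, 7 of 7 receptors and membrane proteins, 5 of 6 transcription factors, 8 of 10 junction and keratin genes and 1 of 7 retinoid and iodothyronine genes. In cortex the counts were 5 of 11, 5 of 12, 1 of 11, 4 of 7, 2 of 6, 3 of 9 and 0 of 7. In all, 44 of 64 list genes rose in striatum (68.8%) and 20 of 63 in cortex (31.7%), and 0 fell in either. Of the 31 list genes called in cerebellum beside Ttr, 29 of 30 tested rose in striatum and 18 of 29 tested rose in cortex. Of the 36 not called in cerebellum, 15 of 34 tested rose in striatum and 2 of 34 in cortex. Igf2, a growth factor of choroid plexus and meninges, was one of the 15, with 0.25 ± 0.03 in striatum (adjusted p = 5.6e-05), 0.00 ± 0.02 in cortex and a cerebellum difference of 0.33. The 2 in cortex were Msx1 and Car2, with slopes of 0.14 and 0.06 (adjusted p = 0.021 and 0.023).

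**Figure D4:**
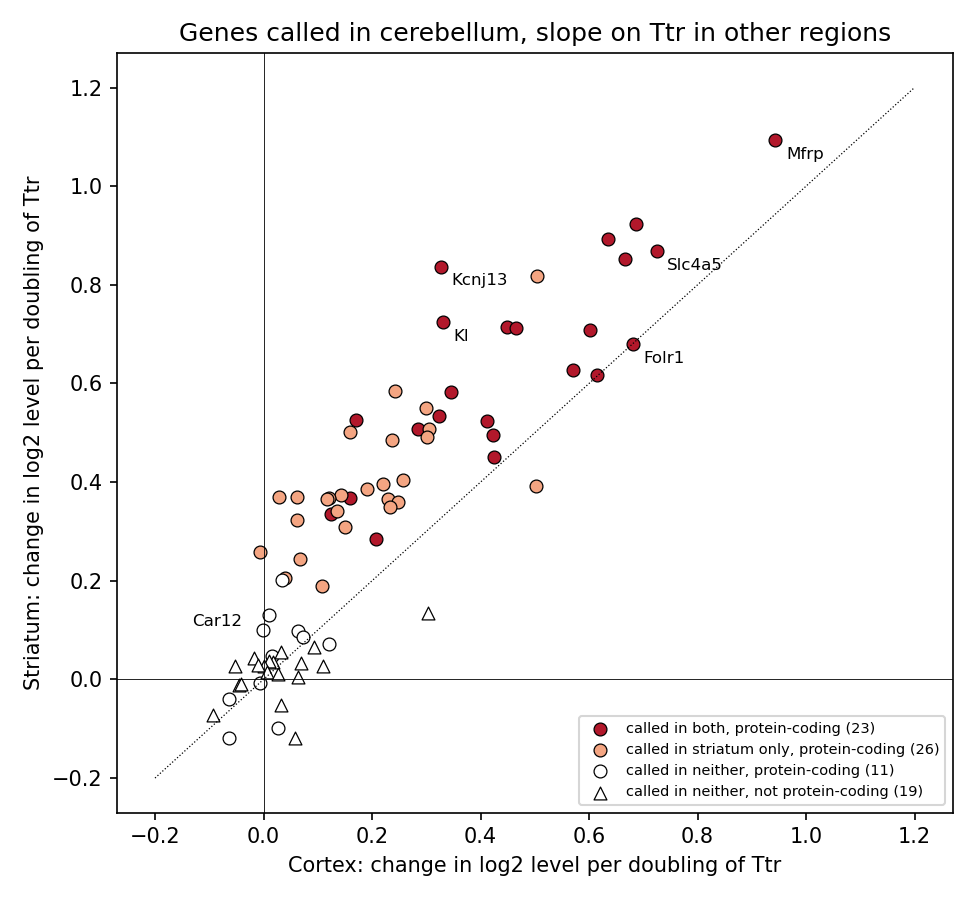
Change in log2 level per doubling of Ttr in cortex (x axis) and striatum (y axis) for the 79 genes that were called in cerebellum and tested in both regions, circles for protein-coding and triangles for other genes, with a dotted line of equal slopes. The 23 genes called in both regions and the 26 that passed in striatum but not in cortex are all protein-coding, and none of the 19 other genes was called in either region, the highest of them being Gm26648 with 0.30 in cortex and 0.14 in striatum.

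Of other lists, 7 of 28 motile cilium genes rose with Ttr in striatum (25%) and 0 of 27 in cortex. Ependyma genes had median slopes of 0.10 in cortex and 0.13 in striatum with 0 of 12 called. Of 18 fibroblast genes 1 was called in striatum, which is Igf2, also on the choroid plexus list, and of 10 oligodendrocyte genes 1 was called in cortex, Mog, with a slope of 0.10 (adjusted p = 0.035). No other list had a called gene in either region. Malat1 had slopes of 0.06 in cortex and −0.10 in striatum, neither of which passed (edgeR adjusted p = 0.673 and 0.336). In cerebellum its mean log2 level was higher by 1.32 in the high-Ttr group, but the groups overlapped and it was not called. That cerebellum difference was not tested.

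These counts depend on the libraries with the most Ttr, and in striatum strongly so on the 4 with the most. Without the cortex library of mouse M758, 22 slopes were positive and 0 negative, 17 of them of cerebellum-called genes. Without the striatum library of mouse M751, which was labelled as repeated, 631 were positive and 265 negative, with 51 cerebellum-called genes. Without the 4 libraries with the most Ttr in each region, 11 were positive in cortex and 13 in striatum, against 33 and 292 with all libraries. Cerebellum-called genes made up 11 and 10 of these, against 23 and 50 with all libraries. The 4 striatum libraries left out had 2511 to 5966 CPM of Ttr, and the next had 472 CPM. With litter added to the model 34 were positive in cortex and 89 in striatum, with 23 and 47 cerebellum-called genes. When the regions were fitted together, 461 of 19781 genes had a positive common slope (2.33%) and 126 a negative one (0.637%), and 52 of the positive ones were cerebellum-called. With the mouse as a replicate block, which compares the regions of the same animal, 79 were positive and 0 negative, and 47 of the 79 were cerebellum-called. Slopes differed between striatum and cortex for 21 genes that were higher in striatum (0.106%) and 2 that were lower (0.0101%), and for 2 and 1 with the block.

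No difference of Ttr was detected in the other regions between mice of the high-Ttr and low-Ttr cerebellum groups. In cortex, mice of the high-Ttr cerebellum group had 4.28, 39.9 and 383 CPM (raw CPM, lowest, median, highest) and mice of the low-Ttr group had 1.80, 394 and 1246 CPM. The difference of mean log2 levels was −1.29 (exact permutation test over 6435 splits, p = 0.414, 0.828 adjusted over 2 regions). In striatum the values were 6.08, 173 and 3904 CPM against 12.9, 85.1 and 6031 CPM, with a difference of −0.03 (exact permutation p = 0.984). The ranges of the groups overlapped in both regions. Mouse M751, which had the most Ttr of all striatum libraries, had 17.6 CPM in cerebellum, and mouse M758, which had the most in cortex, had 9.48 CPM.

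The comparison of genotypes in cerebellum was examined for its dependence on Ttr. Mbd5, the targeted gene, was at 30.01 to 43.1 CPM in low-Ttr and 43.6 to 66.4 CPM in high-Ttr Mbd5+/GT libraries, and at 43.0 to 59.6 CPM in low-Ttr and 54.9 to 76.2 CPM in high-Ttr WT libraries. Its median was thus higher in the high-Ttr group within each genotype, with overlap in WT and a narrow gap, from 43.1 to 43.6 CPM, in Mbd5+/GT. Low-Ttr WT libraries overlapped with high-Ttr Mbd5+/GT libraries. The Mbd5+/GT groups held only 5 low-Ttr and 4 high-Ttr libraries, and such small groups overlap less readily. In Mbd5+/GT libraries alone, 458 genes were called higher even with the 2-fold limit. Whether Mbd5 stands out among all genes there was not tested. In cortex and striatum, which did not choose the groups, the slopes of Mbd5 on log2 Ttr were −0.018 ± 0.015 (SE) and −0.002 ± 0.017. Neither passed (edgeR adjusted p = 0.666 and 0.972). With genotype and 2 surrogate variables in the edgeR model, 1 gene passed an adjusted p of 0.05, Mbd5 itself, at −0.34 ± 0.05 (SE, adjusted p = 0.0091, 0.00551% of genes lower). At an unadjusted p under 0.05, 175 genes were higher (0.964%) and 324 lower (1.78%) in Mbd5+/GT. Of the 92 called genes, 1 was among the 175 and 0 among the 324, and of 66 choroid plexus list genes the numbers were 0 and 1. Ttr differed by −0.69 ± 0.94 between genotypes in this model (adjusted p = 1.00). In the 15 libraries without mice M754, M755 and M761, Mbd5 was again the 1 gene that passed, at −0.39 ± 0.05 (edgeR adjusted p = 0.0063), and 576 genes had an unadjusted p under 0.05.

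**Figure D5:**
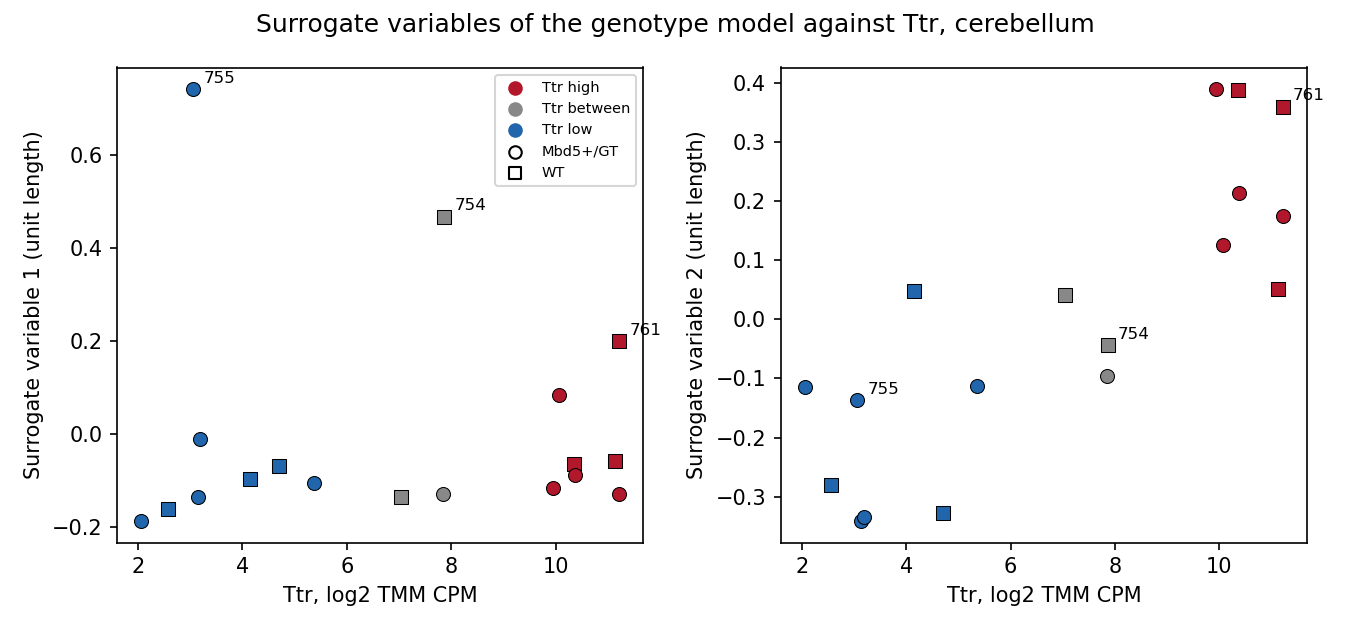
The surrogate variables of the genotype model (y axes, unit length) against log2 TMM CPM of Ttr (x axes) in the 18 cerebellum libraries, circles for Mbd5+/GT and squares for WT. The second variable lies between 0.0506 and 0.389 in the high-Ttr and between −0.341 and 0.0476 in the low-Ttr libraries, and the first is highest in mouse M755.

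The second surrogate variable did not overlap between the Ttr groups, though the gap was narrow, with 0.0506 to 0.389 in the high-Ttr libraries, −0.0962 to 0.0408 in those between and −0.341 to 0.0476 in the low-Ttr libraries. It also moved with Malat1: the mice with the highest values, M763, M762 and M761 (0.389, 0.387 and 0.36), had log2 Malat1 levels of 10.39, 10.47 and 10.48, whereas M757, with 0.0506, had 9.002 at a log2 Ttr level of 11.13. Which of the 2 genes the variable follows was not tested. The first was highest in mouse M755, at 0.741, followed by mouse M754, at 0.467. The surrogate variables were estimated without reference to Ttr, but from all genes, Ttr included. When log2 Ttr took the place of both, Mbd5 differed by −0.35 ± 0.11 and did not pass (adjusted p = 1, unadjusted p = 0.0059), and 101 genes had an unadjusted p under 0.05. With neither, 84 had, and Mbd5 differed by −0.39 ± 0.14. With log2 Ttr added to the 2 surrogate variables, Mbd5 differed by −0.35 ± 0.04 (adjusted p = 0.00089) and 534 genes had an unadjusted p under 0.05. Without the 7 high-Ttr libraries, Mbd5 differed by −0.40 ± 0.06 in the remaining 11 but missed the threshold (edgeR adjusted p = 0.128).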

How the data were processed

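Polyadenylated RNA from 3 brain regions of each of 18 mice had been sequenced, giving 1 library for every region of a mouse. The deposited counts are unnormalized reads per gene, which the authors obtained by aligning with STAR to GRCm38 (STAR 2.4.2 and FastQC 0.10.1 in the submitters' processing notes). The strand setting of the counting was not given in the sources used here, and reads of overlapping or near-identical genes may be split between them. The table held 47069 genes, of which 46488 matched a name, and 92 ERCC spike-ins, which were left out of all totals. Genotype, litter, sex and region came from the sample labels, and the Ttr groups from Ttr itself.

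A gene entered a fit if over 4 counts were seen in 8 or more of the libraries of that region. Log2 CPM used TMM factors and a prior count of 2, so fold changes of rare genes are understated. In cerebellum a gene was called when the group means differed by at least 2-fold and the groups did not overlap, with no test. Slopes on log2 Ttr and genotype effects were fitted with edgeR 4.0.16 (quasi-likelihood, robust, Benjamini-Hochberg adjustment over all genes of the fit) in R 4.3.3. Each standard error was obtained from the fold change and its F statistic. Surrogate variables came from sva 3.50.0, and DESeq2 1.42.0 served as an alternative, beside other scalings, filters, thresholds and sets of libraries. Single values were tested by exact permutation over mice. The scripts were tested on simulated data.

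Members and gene lists were chosen with earlier results of these data known. Named genes were Ttr, the list genes, the 15 largest called higher off the list, genes called lower, the 10 most like Ttr, up to 4 abundant members of other lists, Mbd5, and genes past the genotype threshold. Malat1, Plvap, Mog and genes named as single exceptions were chosen after their values were seen. The 3 libraries of a mouse come from the same animal, which pairs the regions. Deviations from the group mean in cortex and striatum correlated with a median of 0.10 within mice (above 0.1 in 9 of 18) and −0.01 between mice. Libraries of a group came from separate mice and differed by more than counting error.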

Additional observations from a re-analysis of the deposited data

Results flagged for a closer look

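The values of 22 genes were checked within the high-Ttr and the low-Ttr cerebellum group, and those of Ttr also within each genotype, for a sample far from the others. In the low-Ttr group, the library of mouse M755 stood apart from the other 7 for 9 of the 22. It was the highest of the group for Kl (5.05 CPM, next 2.71), Prlr (8.41, next 0.823), Car12 (6.59, next 1.09), Slc4a5 (2.80, next 1.35), Enpp2 (658, next 185), Sostdc1 (0.848, next 0.193), Cldn1 (2.28, next 0.497) and Htr2c (120, next 4.04). It was the lowest for Kcnj13 (0.130 CPM, next 1.12). In the high-Ttr group, mouse M761 had 65.9 CPM of Htr2c, with the next at 36. In all, 10 of 46 groups of values had such a sample. Chance gives a share of about 0.05 in independent groups, but 9 of the 10 came from 1 library, so the share cannot be read against chance. Mouse M755 was also extreme in the low-Ttr group for genes that were not among the 22, with 18.3 CPM of Lmx1b (median 0.247), 30.2 CPM of Foxj1 (median 6.87) and 1.99 CPM of Clic6 (median 12.3). The libraries of mice M755 and M761 also held Hox transcripts, and each had the fewest granule cell transcripts of its own Ttr group. Hox transcripts were also present in the libraries of mice M754 and M756. The part of this in the values was not tested.

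The slope on Ttr differed between the regions for 8 of the genes named, with a larger slope in striatum than in cortex by 0.49 for Kcnj13, 0.39 for Kl, 0.36 for Col8a1, 0.34 for Wfikkn2, 0.31 for Abca4, 0.25 for Rbm47, 0.24 for Slc2a12 and 0.24 for Igf2 (interaction term in edgeR, adjusted p from 4.8e-06 for Kl to 0.045 for Slc2a12). That fit treated the cortex and striatum libraries of a mouse as independent. Of all genes tested, 21 had a larger slope in striatum in it. With the mouse as a replicate block 2 had, so no more than 2 of the 8 can have passed there.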

How the results depend on the processing

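In cerebellum, without TMM factors 2 genes were called lower, and with a 4-fold threshold 46 were called higher and 0 lower. Without the high-Ttr library with the most Ttr (M761) 3 were called lower. Smaller groups overlap less readily, and gave 458 higher and 39 lower in Mbd5+/GT libraries, 415 and 59 in WT libraries, where Foxj1 turned to 0.14, and 862 and 175 in females. Without M754, M755 and M761, chosen after seeing the data, 148 were higher and 6 lower, and without M755 alone, also chosen afterwards, 159 and 6 (Foxj1 0.0772).

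In cortex, 60 slopes were positive and 15 negative without a filter (Igf2 −3.78e-05), and 77 and 18 with DESeq2. With litter added 1 was negative (Igf2 −0.000236, Car12 0.0094, Dnah11 0.028). Without the library with the most Ttr 0 were negative (Car12 0.0018, Hydin −0.046), and with log2 Malat1 added 2 (Car12 0.0136, Hydin −0.0246). Without the 4 libraries with the most Ttr 11 were positive and 0 negative (Aqp1 −0.0113, Gmnc −0.0054, Ccdc39 −0.0013, Hydin −0.14).

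In striatum, 160 were negative without a filter and 116 with log2 Malat1, and DESeq2 gave 447 positive and 124 negative. With litter added the counts were 89 and 2, without the library with the most Ttr 631 and 265, and without the 2 libraries labelled as repeated 518 and 270. Without the 4 libraries with the most Ttr they were 13 and 0 (Enpp2 −0.0011, Car12 −0.0021, Gm26648 −0.28, Dnah11 −0.0111, Ccdc39 −0.0061).

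With the mouse as a replicate block, the common slopes of both regions were positive for 79 genes and negative for 0 (Gm43696 −0.16, Gm12525 0.0199), and the difference between regions was called for 2 genes higher and 1 lower in striatum. DESeq2 gave 252 negative common slopes.

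Ttr by genotype turned to 0.37 without M754, M755 and M761, and the striatum difference between the cerebellum groups turned to 0.70 with a single threshold of 250 CPM. For genotype, 0 genes passed at an adjusted and 101 at an unadjusted p under 0.05 with log2 Ttr in place of the surrogate variables, and 0 and 84 without them. DESeq2 gave 3 adjusted calls, no filter 2 and 1290 unadjusted, and the libraries without high Ttr or without litter 2 gave 0 adjusted calls (unadjusted 506 and 428). The cause of these shifts was not tested.
Among the other values, 1323 for single genes and 33 for counts and group differences kept their direction and call. Calls of single genes were lost in 58 cases and gained in 16, and 25 values moved beyond their spread. Genes with a few reads are limited by depth.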
